A study of Homo sapiens with 8 samples.

Results

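The genes examined here encode regulators of alternative splicing linked to the epithelial–mesenchymal transition (EMT), and their levels were compared in OVCA429 cells depleted of the transcription factor GRHL2. The 10 genes were taken by gene symbol from a list that had been set out by function, with earlier results of these data known. They were ESRP1, ESRP2, RBM47, QKI, RBFOX2, MBNL1, MBNL2, MBNL3, PTBP1 and SRSF1. All 10 symbols were found among the 57820 genes of the deposited table, each in 1 row, and all 10 passed the filter on low values that left 15019 genes. OVCA429 is an established human ovarian cancer cell line. The shGRHL2 cells carried a short hairpin RNA (shRNA) directed at GRHL2, the construct numbered 12, and the shLuc cells carried an shRNA directed at luciferase, which human cells do not encode. Both were stable lines kept under puromycin, and total RNA of each was sequenced in paired-end mode after a stranded library preparation. A single shRNA against GRHL2 was used. In these libraries an effect of this hairpin other than on GRHL2 and the loss of GRHL2 cannot be told apart. The authors also put a hairpin-resistant GRHL2 back into these cells and reported that the ESRP1 transcript rose over time. No such rescue is among the samples here.

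Most human genes with several exons give more than 1 messenger RNA, because exons can be included or skipped. Which exons are kept depends on proteins that bind the precursor RNA near a splice site. The ESRP proteins bind near exons that epithelial cells include, as in the receptor gene FGFR2, and their loss is a known step of EMT. QKI, RBFOX2 and the MBNL proteins act on many of the same transcripts and are known for exons that mesenchymal, muscle or nerve cells include, whereas PTBP1 mostly represses exons. The values here are sums over the transcripts of a gene, so they give the level of each regulator and say nothing of exon use.

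The labels name 4 samples per group, but their descriptions end in L001 to L004, as sequencing lanes of 1 library do. The values of these samples also behaved as sequencing runs of 1 library. The median coefficient of variation of genes at 100 FPKM or more was 2.79% among the 4 shGRHL2 samples and 2.72% among the 4 shLuc samples. FPKM are fragments per kilobase of transcript, scaled to the sequencing depth, so levels of different genes can be compared per length. Each group was therefore treated as 1 library read in 4 runs, ± denotes the SD between these runs, and no test of the knockdown was possible. The mitochondrial ribosomal RNA MT-RNR2 took 23.7% to 23.8% of fragments in each shGRHL2 run and 14.7% in each shLuc run. Depth estimated from the spacing of low values came to 9.88 to 10.2 M fragments per shGRHL2 run and 9.20 to 9.46 M per shLuc run. GRHL2 itself was at 0.13, 0.15, 1.17 and 0.10 FPKM in the shGRHL2 runs and at 31.5, 38.7, 33.4 and 32.0 FPKM in the shLuc runs, so the targeted gene was low in the library labelled as its knockdown.

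Markers of cell state and of other cell types were read by the same 2-fold limit that is explained next. By this limit 7.24% of all tested genes were lower and 4.97% higher. Of 6 epithelial markers 5 were lower in shGRHL2, among them the adhesion genes CDH1 (0.313 FPKM in shGRHL2 and 50.5 FPKM in shLuc) and EPCAM (24.3 and 203 FPKM) and the keratins KRT19 (141 and 877 FPKM) and KRT18 (538 and 1549 FPKM). PAX8 was within the limit and higher by 0.80. Of 6 markers of the mesenchymal state 5 were higher, among them CDH2 (25.2 FPKM in shGRHL2 and 0.350 FPKM in shLuc), FN1 (2905 and 236 FPKM), ZEB1 (12.9 and 0.495 FPKM) and VIM (1383 and 158 FPKM). SNAI2 was lower at −1.06, though at −0.96 with equal medians and −0.95 without the mitochondrial ribosomal RNAs, scalings that are described with the differences. PAX8 and SNAI2 were named after their values were seen, as the members that went against their lists. Summed levels of 7 fibroblast markers were 3.57 to 5.19 FPKM in shGRHL2 and 1.09 to 2.81 FPKM in shLuc. Of these COL1A1, a collagen chain, was called higher, at 3.10, 4.55, 4.41 and 2.48 FPKM in the shGRHL2 runs and 0.94, 0.79, 2.24 and 0.80 FPKM in the shLuc runs, and the other 6 were under 1 FPKM on average in both libraries, with DCN at 0 in all runs. Summed levels of 5 leukocyte markers, all under 1 FPKM on average, were 0.54 to 0.78 FPKM in shGRHL2 and 0.35 to 1.1 FPKM in shLuc. Summed levels of 5 neuronal markers were higher, at 1.52 to 2.48 FPKM in shGRHL2 and 0.04 to 0.35 FPKM in shLuc. Most of this in shGRHL2 was RBFOX3, which was called higher at a difference of 1.17, and SNAP25 was at 0.14 to 0.46 FPKM in shGRHL2 and listed at 0 in all shLuc runs, whereas ELAVL3 and ELAVL4 were listed at 0 in all runs. The part of other cell types in the levels below was not tested.

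The knockdown library had lower levels of the 3 epithelial splicing regulators, ESRP1, ESRP2 and RBM47, while the regulators known from mesenchymal cells stayed within 2-fold of the control. Differences are given as the mean of log2(FPKM + 1) over the shGRHL2 runs minus that over the shLuc runs, and a gene was called at an absolute difference of 1 or more, which is 2-fold on that scale. Of the 10 genes 3 were called lower, against 7.24% of all tested genes, and 0 were called higher, against 4.97%. Because the genes were chosen with earlier results of these data known, these shares are a description only. The median difference of the 10 genes was −0.17, and that of all tested genes was −0.10. The runs of the 2 libraries did not overlap for 6 of the 10 genes, 4 of them lower and 2 of them higher, where 51.6% of all tested genes did not overlap. With most tested genes apart in this way, runs that do not overlap are given as a description of each gene only. In bulk RNA a lower level can mean fewer cells with the transcript or less of it in every cell, and these cannot be told apart.

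**Figure D1:**
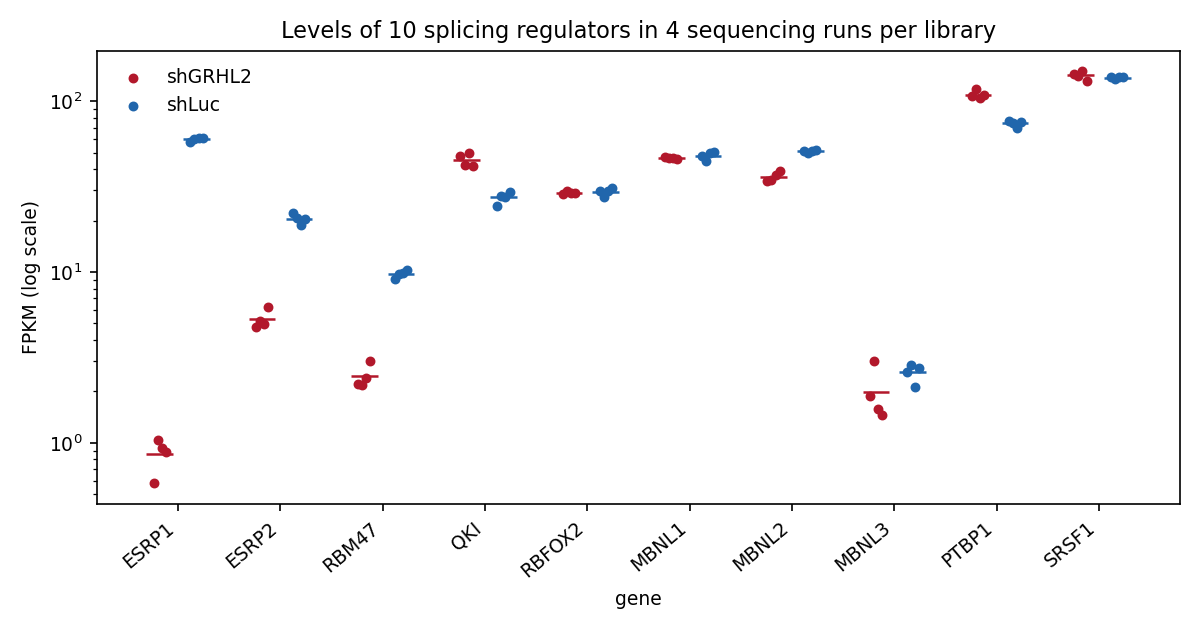
FPKM (log axis) of the 10 splicing regulators in each of the 4 sequencing runs of the shGRHL2 library (red, left) and of the shLuc library (blue, right), with a bar at each mean. ESRP1, at 0.58 to 1.04 FPKM in shGRHL2 and 57.7 to 61.2 FPKM in shLuc, had the widest gap of the 10 genes, and the points of RBFOX2, MBNL1, MBNL3 and SRSF1 overlapped between the libraries.

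ESRP1 (ENSG00000104413.11, chromosome 8, bases 95653302 to 95719694 of GRCh37, plus strand) promotes the epithelial forms of many transcripts. It was at 0.58, 1.04, 0.94 and 0.89 FPKM in the shGRHL2 runs and at 57.7, 60.0, 61.1 and 61.2 FPKM in the shLuc runs. All shGRHL2 runs lay far below all shLuc runs, and run 1 was the lowest of its library in both. The difference was −5.04, and the mean of 0.863 ± 0.20 FPKM in shGRHL2 was 1.44% of the 60.0 ± 1.6 FPKM in shLuc, or 69.6-fold lower. This shGRHL2 level rested on about 74.4 fragments in the whole library, a counting error of 11.6%, and the shLuc level on about 4832. ESRP1 stood at rank 10 of the 10 genes by level in shGRHL2 and at rank 3 in shLuc. The processed pseudogene RP11-22C11.1, which lies inside ESRP1 on the same strand, was listed at 0 in all shGRHL2 runs and at 0.91 to 3.11 FPKM in the shLuc runs, and how fragments were divided between the pair was not tested.

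ESRP2 (ENSG00000103067.7, chromosome 16, bases 68262936 to 68272005 of GRCh37, minus strand) is the paralog of ESRP1 with overlapping targets. It was at 4.78, 5.18, 4.95 and 6.26 FPKM in the shGRHL2 runs and at 22.1, 20.7, 18.8 and 20.5 FPKM in the shLuc runs. Every shGRHL2 run was lower than every shLuc run, and ESRP2 was well above ESRP1 in each shGRHL2 run. The means were 5.29 ± 0.67 FPKM in shGRHL2 and 20.5 ± 1.3 FPKM in shLuc, 3.87-fold lower with a difference of −1.78. The long non-coding RNA RP11-96D1.11, which overlaps the 3′ end of ESRP2 on the same strand, was lower too, at 1.07 ± 0.47 FPKM in shGRHL2 and 4.85 ± 0.77 FPKM in shLuc. NFATC3, a transcription factor gene that meets the same end from the opposite strand, was at 6.72 ± 0.65 FPKM in shGRHL2 and 6.89 ± 0.67 FPKM in shLuc. Whether strand was used in counting is not given in the sources used here, so reads from the region that ESRP2 shares with NFATC3 cannot be told apart.

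The ESRP pair as a whole was lower, and its make-up turned over. Summed over both genes, the level was 6.16 ± 0.75 FPKM in shGRHL2 and 80.5 ± 0.89 FPKM in shLuc, 13.1-fold lower. ESRP1 made up 13.99% ± 2.8 of the sum in shGRHL2 and 74.5% ± 1.7 in shLuc, so the remaining ESRP transcript in the knockdown was mostly ESRP2. The ratio of ESRP1 to ESRP2 within a run, which no scaling of the library can move, was 0.121 to 0.201 in shGRHL2 and 2.62 to 3.25 in shLuc.

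RBM47 (ENSG00000163694.10, chromosome 4, bases 40425284 to 40632892 of GRCh37, minus strand) encodes an RNA-binding protein of epithelia that acts in splicing, RNA stability and C-to-U editing. It was at 2.22, 2.18, 2.4 and 3.02 FPKM in the shGRHL2 runs and at 9.12, 9.70, 9.83 and 10.3 FPKM in the shLuc runs. The libraries did not overlap, and run 4 was the highest in each. The means were 2.46 ± 0.39 FPKM in shGRHL2 and 9.74 ± 0.49 FPKM in shLuc, 3.97-fold lower with a difference of −1.64. The 4 genes that overlap RBM47 were each under 1 FPKM on average in both libraries.

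RBM47 was the only called gene of the 10 with promoter windows among those searched in a RefSeq table. These are shown because GRHL2 is a DNA-binding factor. Each window runs from 250 bases before to 50 bases after an annotated start on GRCh38.p14, and 16 windows of 6 of the genes were found, 4 of them for RBM47, 4 for MBNL3, 3 for MBNL1, 2 each for MBNL2 and PTBP1, and 1 for SRSF1. ESRP2, QKI and RBFOX2 had none among those searched. ESRP1 could have none, because windows of its chromosome were left out of the search, so its promoter was not examined. Both strands were searched for AACNNGTT, the Grainyhead motif, and for AACCGG, a half-site of this motif. They were also searched for CACCTG, the E-box that the repressor ZEB1 binds. Matches of AACNNGTT and AACCGG can overlap each other. AACNNGTT was in 0 of the 16 windows, against 3.52% of all 35116 windows searched. AACCGG was in 2, 1 of RBM47 and 1 of MBNL1, against 7.23% of all windows. CACCTG was in 1, of RBM47, against 20.6%. The first RBM47 window below holds AACCGG from 17 to 12 bases before its start. The second holds CACCTG from 208 to 203 bases before its start. The MBNL1 window holds AACCGG on the opposite strand from 207 to 202 bases before its start. Matches are in capitals, and each window is written along the strand of its gene. MBNL1 is shown for contrast, as its level barely differed between the libraries. A match of letters is a description and no evidence of binding, and which of the starts was used was not measured.
RBM47 chr4:40629815-40630114 (minus): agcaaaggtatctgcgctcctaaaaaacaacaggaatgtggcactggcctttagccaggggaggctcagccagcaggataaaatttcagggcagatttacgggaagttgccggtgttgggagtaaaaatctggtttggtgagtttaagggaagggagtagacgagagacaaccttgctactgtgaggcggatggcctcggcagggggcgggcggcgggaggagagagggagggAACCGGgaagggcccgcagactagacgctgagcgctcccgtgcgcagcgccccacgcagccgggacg
RBM47 chr4:40514532-40514831 (minus): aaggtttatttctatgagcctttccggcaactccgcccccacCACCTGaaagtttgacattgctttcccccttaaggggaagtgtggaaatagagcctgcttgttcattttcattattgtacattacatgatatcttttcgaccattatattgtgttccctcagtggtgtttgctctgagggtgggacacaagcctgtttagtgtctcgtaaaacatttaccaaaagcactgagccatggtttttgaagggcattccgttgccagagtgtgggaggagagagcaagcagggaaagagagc
MBNL1 chr3:152268679-152268978 (plus): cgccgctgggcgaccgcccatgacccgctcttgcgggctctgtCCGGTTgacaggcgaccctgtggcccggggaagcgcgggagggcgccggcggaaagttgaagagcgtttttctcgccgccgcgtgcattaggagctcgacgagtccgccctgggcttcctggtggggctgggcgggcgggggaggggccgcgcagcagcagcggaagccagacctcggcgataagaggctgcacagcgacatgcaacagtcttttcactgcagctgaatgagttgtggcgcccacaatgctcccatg

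The windows also differed in base composition. The RBM47 window with AACCGG had a GC share of 59.7% and a ratio of observed to expected CpG of 0.769, whereas that with CACCTG had 45.7% and 0.322. Over all windows searched the median GC share was 58.7% and the median CpG ratio 0.579. The SRSF1 window had a CpG ratio of 1.22, and those of MBNL2 had 0.229 and 0.290.

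Among the regulators known from mesenchymal cells, QKI had the largest positive difference. QKI (ENSG00000112531.12, chromosome 6, bases 163835032 to 163999624 of GRCh37, plus strand) is an RNA-binding protein of the STAR family that acts in splicing and in the formation of circular RNAs. It was at 47.4, 42.5, 49.7 and 41.6 FPKM in the shGRHL2 runs and at 24.4, 28.0, 27.6 and 29.4 FPKM in the shLuc runs. All shGRHL2 runs were higher than all shLuc runs. The mean of 45.3 ± 3.9 FPKM in shGRHL2 was 1.66-fold that of 27.3 ± 2.1 FPKM in shLuc, and the difference of 0.71 was within the limit. The SD between shGRHL2 runs was 2.95 times that expected from counting, and QKI has 17 transcripts in the authors' table among which fragments were divided.

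RBFOX2 (ENSG00000100320.18, chromosome 22, bases 36134783 to 36424872 of GRCh37, minus strand), a splicing factor of nerve, muscle and mesenchymal cells, hardly differed. It was at 28.6, 29.9, 28.9 and 29.1 FPKM in the shGRHL2 runs and at 29.7, 27.4, 29.6 and 30.9 FPKM in the shLuc runs. The runs overlapped, and the difference of −0.01 came from means of 29.1 ± 0.54 FPKM in shGRHL2 and 29.4 ± 1.5 FPKM in shLuc. Its relatives were near the floor. RBFOX1 was listed at 0 in all runs. RBFOX3, whose protein is the neuronal marker NeuN, was at 1.94, 1.12, 1.55 and 1.78 FPKM in the shGRHL2 runs and at 0.22, 0.17, 0.04 and 0.17 FPKM in the shLuc runs. RBFOX3 was thus higher in every shGRHL2 run, with a difference of 1.17, but it made up only 5.21% ± 1.2 of the summed RBFOX level in shGRHL2 and 0.509% ± 0.26 in shLuc.

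The MBNL proteins bind RNA through zinc fingers and are known for being sequestered by repeat RNA in myotonic dystrophy. MBNL2 (ENSG00000139793.14, chromosome 13, bases 97873688 to 98046374 of GRCh37, plus strand) was at 34.2, 34.4, 36.8 and 39.1 FPKM in the shGRHL2 runs and at 51.1, 49.5, 51.3 and 51.9 FPKM in the shLuc runs. It was lower in all shGRHL2 runs, 1.41-fold in the means (36.1 ± 2.3 FPKM in shGRHL2 and 50.9 ± 1.0 FPKM in shLuc), with a difference of −0.49 that was within the limit. MBNL1 (ENSG00000152601.13, chromosome 3, bases 151961617 to 152183569 of GRCh37, plus strand) was at 46.8, 46.3, 46.3 and 45.6 FPKM in the shGRHL2 runs and at 47.6, 44.9, 49.4 and 50.1 FPKM in the shLuc runs. These runs overlapped, and the difference was −0.05. MBNL3 (ENSG00000076770.10, chromosome X, bases 131503348 to 131623996 of GRCh37, minus strand) was the scarce member, at 1.88, 3.0, 1.58 and 1.46 FPKM in the shGRHL2 runs and at 2.60, 2.87, 2.13 and 2.73 FPKM in the shLuc runs. Run 2 of shGRHL2 exceeded all shLuc runs and the other 3 lay below all of them. The SD of MBNL3 between shGRHL2 runs was 3.66 times that from counting, the highest ratio of the 10 genes in either library.

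The sum of the MBNL genes was 84.4 ± 1.4 FPKM in shGRHL2 and 101 ± 3.2 FPKM in shLuc. MBNL2 made up 42.8% ± 2.0 of it in shGRHL2 and 50.2% ± 0.59 in shLuc. MBNL1 made up 54.9% ± 1.5 in shGRHL2 and 47.2% ± 0.86 in shLuc, so that the pair changed places as the more abundant MBNL transcript. MBNL3 was 2.35% ± 0.86 of the sum in shGRHL2 and 2.55% ± 0.36 in shLuc. The antisense RNA MBNL1-AS1 was under 0.2 FPKM in every run. The pseudogene TMEM14E, which lies inside MBNL1 on the opposite strand, was at 2.13 ± 0.48 FPKM in shGRHL2 and 1.86 ± 0.36 FPKM in shLuc.

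PTBP1 (ENSG00000011304.12, chromosome 19, bases 797075 to 812327 of GRCh37, plus strand), the polypyrimidine tract binding protein that represses many exons, was at 107, 118, 104 and 108 FPKM in the shGRHL2 runs and at 76.6, 74.8, 69.2 and 75.8 FPKM in the shLuc runs. All shGRHL2 runs were higher, 1.47-fold in the means (109 ± 6.0 FPKM in shGRHL2 and 74.1 ± 3.4 FPKM in shLuc), and the difference of 0.55 was within the limit. Its paralog PTBP3 went the other way, at 28.8 ± 1.2 FPKM in shGRHL2 and 44.8 ± 1.4 FPKM in shLuc, a difference of −0.62. PTBP2, the paralog of nerve cells, was at 14.6 ± 0.44 FPKM in shGRHL2 and 12.6 ± 1.8 FPKM in shLuc with overlapping runs. PTBP1 made up 71.5% ± 1.5 of the summed PTBP level in shGRHL2 and 56.3% ± 1.5 in shLuc. The pseudogene PTBP1P was at most 0.33 FPKM in any run.

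SRSF1 (ENSG00000136450.8, chromosome 17, bases 56078280 to 56084707 of GRCh37, minus strand), a serine- and arginine-rich (SR) protein that promotes exon inclusion, had the highest level of the 10 genes in both libraries. It was at 144, 141, 149 and 132 FPKM in the shGRHL2 runs and at 137, 135, 138 and 138 FPKM in the shLuc runs. The shLuc runs lay within the range of the shGRHL2 runs, and the difference was 0.04. The pseudogene SRSF1P1 was listed at 0 in all runs. RP11-159D12.5, annotated as protein-coding, spans most of SRSF1 on the same strand. It was at 1.06 ± 0.91 FPKM in shGRHL2 and 1.19 ± 0.23 FPKM in shLuc. How fragments were divided between it and SRSF1 was not tested.

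The order of the 10 levels in shGRHL2 was SRSF1, PTBP1, MBNL1, QKI, MBNL2, RBFOX2, ESRP2, RBM47, MBNL3 and ESRP1. In this order the runs of MBNL1 and QKI overlapped, as did those of RBM47 and MBNL3, and other neighbours did not overlap. The order in shLuc was SRSF1, PTBP1, ESRP1, MBNL2, MBNL1, RBFOX2, QKI, ESRP2, RBM47 and MBNL3. There the runs of MBNL2 and MBNL1 overlapped, as did those of RBFOX2 and QKI, and other neighbours did not.

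Ratios between pairs of these genes were also taken within each run, because they do not depend on how a library is scaled. The ratio of ESRP1 to QKI was 0.0122, 0.0245, 0.0189 and 0.0214 in the shGRHL2 runs and 2.37, 2.15, 2.22 and 2.08 in the shLuc runs. ESRP1 thus outweighed QKI in every shLuc run and was a small fraction of it in every shGRHL2 run, a 114-fold lower mean ratio. The ratio of ESRP2 to QKI was 6.39-fold lower in shGRHL2, and that of RBM47 to QKI was 6.52-fold lower. The ratio of QKI to RBFOX2 was 1.42 to 1.72 in shGRHL2 and 0.821 to 1.02 in shLuc, and that of MBNL2 to MBNL1 was 0.729 to 0.856 in shGRHL2 and 1.04 to 1.10 in shLuc. The ratio of PTBP1 to SRSF1 was 0.698 to 0.836 in shGRHL2 and 0.500 to 0.557 in shLuc. The ratio of PTBP1 to PTBP3 was 3.56 to 4.28 in shGRHL2 and 1.53 to 1.73 in shLuc. None of these ranges overlapped between the libraries, which is given as a description only. Each pair held a gene whose own runs did not overlap, and the share among all gene pairs was not computed.

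**Figure D2:**
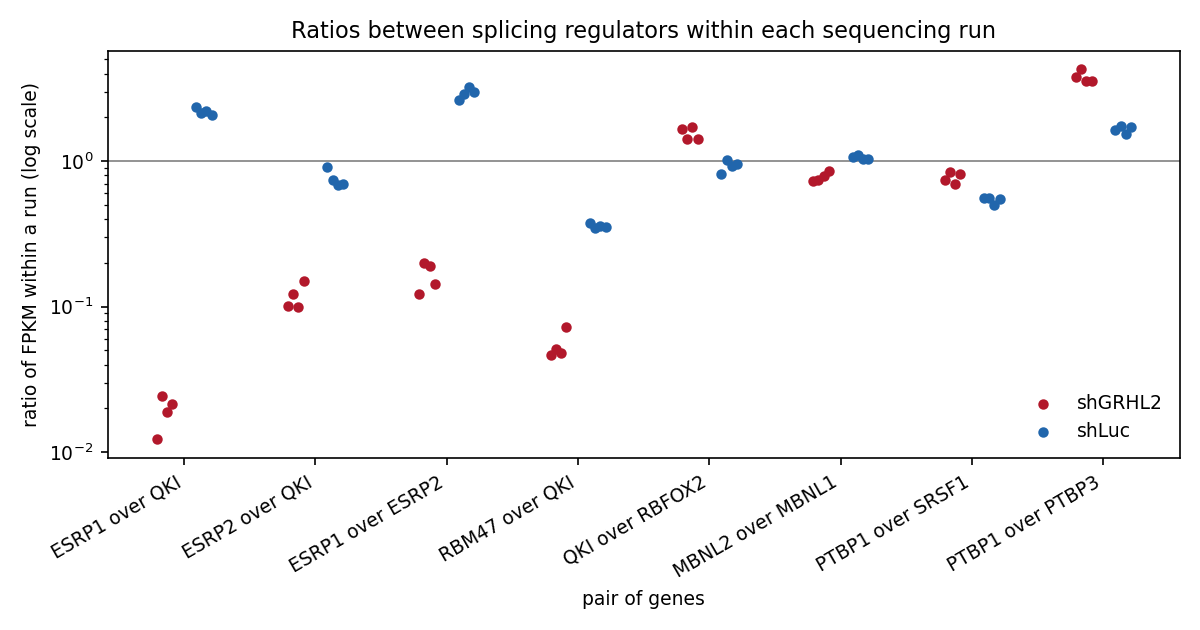
Ratios of FPKM between pairs of splicing regulators within each of the 4 sequencing runs (log axis, shGRHL2 in red on the left, shLuc in blue on the right, grey line at a ratio of 1). The ratio of ESRP1 to QKI lay between 0.0122 and 0.0245 in shGRHL2 and between 2.08 and 2.37 in shLuc. No pair overlapped between the libraries, and each pair holds a gene whose own runs did not overlap.

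Among the regulators the small differences depended on scaling, whereas the calls did not. The share of MT-RNR2 is larger in shGRHL2, which lowers the FPKM of all other genes there, so the comparison was repeated with values rescaled to TPM, in which each run has the same total, with differences shifted to equal medians, a shift of 0.10, and with the mitochondrial ribosomal RNAs left out of the scaling. ESRP1 ranged from −5.10 to −4.94 over the deposited scaling and these 3, ESRP2 from −1.84 to −1.67, and RBM47 from −1.68 to −1.55. QKI ranged from 0.60 to 0.86 and PTBP1 from 0.44 to 0.71, so both kept their sign and stayed under the limit. MBNL2 ranged from −0.59 to −0.34 and MBNL3 from −0.34 to −0.19. RBFOX2 and MBNL1 turned positive with equal medians (0.08 and 0.05) and without the mitochondrial RNAs (0.14 and 0.10), and SRSF1 turned negative with TPM (−0.06), so no direction is given for these 3 genes.

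**Figure D3:**
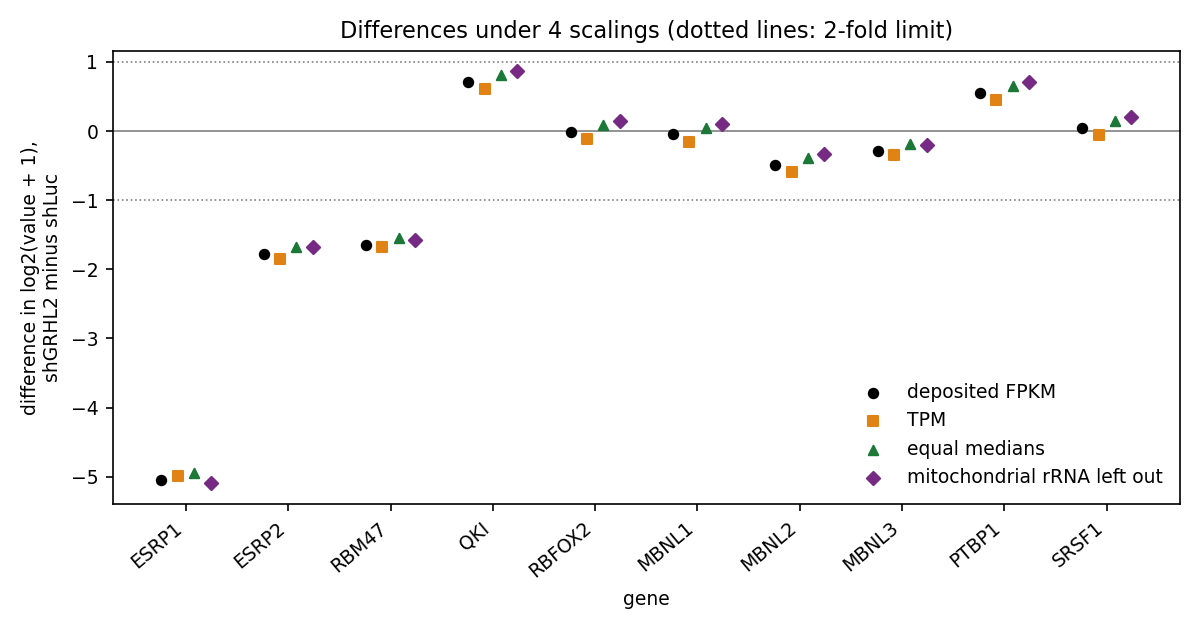
Difference in log2(value + 1), shGRHL2 minus shLuc, of each of the 10 genes under the deposited FPKM scaling and 3 others, with the 2-fold limit dotted. ESRP1, ESRP2 and RBM47 lie below −1 under all 4, and QKI and PTBP1 lie between 0 and 1 under all 4.

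Splicing factors of general function had no member past the limit in 4 lists, as was the case for 7 of the 10 regulators. The farthest of their members, SRSF5 at 0.83, lay farther from 0 than QKI at 0.71. No test compares these lists with the regulators. Of 14 SR proteins 0 were higher and 0 lower by the limit, with a median difference of 0.18. They ran from −0.31 for SRSF8, whose symbol has a second row in the table and whose runs overlapped, to 0.83 for SRSF5, which was at 124 ± 7.0 FPKM in shGRHL2 and 69.2 ± 3.5 FPKM in shLuc. Of 24 heterogeneous nuclear ribonucleoproteins (hnRNPs), which package precursor RNA, 0 were higher and 0 lower, with a median of 0.13. Among them HNRNPH1 was at 451 ± 9.7 FPKM in shGRHL2 and 294 ± 21 FPKM in shLuc, and PCBP1 at 19.3 ± 1.4 FPKM in shGRHL2 and 31.2 ± 1.6 FPKM in shLuc. Of 43 core spliceosome genes 0 were higher and 0 lower, with a median of −0.03 and a range from −0.43 (SF3B6) to 0.41 (PRPF3). Of 8 tested kinases that phosphorylate SR proteins 0 were higher and 0 lower. Among these SRPK1 was at 20.9 ± 2.5 FPKM in shGRHL2 and 34.3 ± 2.3 FPKM in shLuc, and CLK2 at 17.5 ± 0.63 FPKM in shGRHL2 and 11.4 ± 0.42 FPKM in shLuc. These medians stand beside −0.10 for all tested genes, of which 4.97% were called higher and 7.24% lower.

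Of 37 other factors of regulated splicing 19 were tested, with a median of −0.03. Of these 1, RBFOX3, was higher and 0 were lower, against 4.97% and 7.24% of all tested genes. The 18 that were not tested were under 1 FPKM on average in both libraries, and 7 of the 37 were listed at 0 in all runs, namely RBFOX1, A1CF, ELAVL3, ELAVL4, NOVA1, KHDRBS2 and SRRM4. NOVA2, a neuronal factor under the filter, was at 1.06, 0.72, 0.38 and 0.79 FPKM in the shGRHL2 runs and at 0, 0.01, 0 and 0.07 FPKM in the shLuc runs. It was the only one of the 18 whose runs did not overlap, and it was named after its values were seen.

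**Figure D4:**
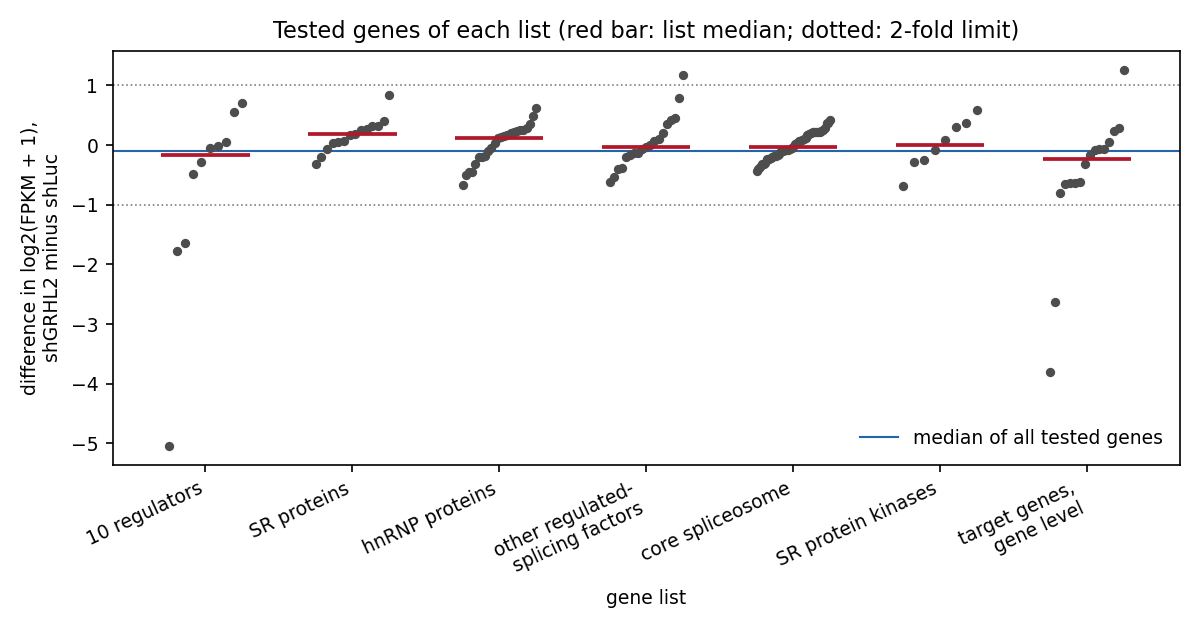
Difference in log2(FPKM + 1), shGRHL2 minus shLuc, of each tested gene in 7 lists (points, sorted within a list), with the list median in red, the median of all tested genes in blue and the 2-fold limit dotted. The 43 core spliceosome genes lie between −0.43 and 0.41, whereas the 10 regulators run from −5.04 to 0.71.

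Genes whose transcripts are known to be spliced by these regulators were compared at gene level. Of 16, 1 was higher and 2 were lower, against 4.97% and 7.24% of all tested genes. The median was −0.24, and 13 were within the limit. FGFR2, the growth factor receptor whose epithelial exon depends on ESRP proteins, was at 0.74, 1.00, 0.93 and 0.83 FPKM in the shGRHL2 runs and at 25.3, 26.1, 25.4 and 23.9 FPKM in the shLuc runs. It was 28.8-fold lower, so few FGFR2 transcripts of any form were left in the knockdown library. GRHL1, a relative of GRHL2, was at 0.483 ± 0.21 FPKM in shGRHL2 and 8.25 ± 1.8 FPKM in shLuc. ITGA6, an integrin chain with alternative cytoplasmic ends, was at 74.6 ± 1.2 FPKM in shGRHL2 and 30.5 ± 1.7 FPKM in shLuc. The hyaluronan receptor CD44, whose variable exons are a standard readout of ESRP activity, was at 86.0 ± 1.8 FPKM in shGRHL2 and 96.8 ± 5.7 FPKM in shLuc, a difference of −0.17. The catenin CTNND1 was at 38.0 ± 1.9 FPKM in shGRHL2 and 66.8 ± 1.9 FPKM in shLuc, and the actin regulator ENAH at 47.4 ± 2.5 FPKM in shGRHL2 and 74.5 ± 2.1 FPKM in shLuc. CD44, CTNND1 and ENAH were thus still well expressed in the knockdown library, and were named after their values were seen.

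The genes nearest to the main regulators over the 8 runs were found by Euclidean distance of log2(FPKM + 1) among all tested genes. Nearest to ESRP1 were S100A14 at a distance of 1.07, CDH1 at 1.143 and RAB25 at 1.41. Nearest to ESRP2 were VAV1 (0.359), MICB (0.378) and FAM65A (0.457), and nearest to QKI were TSPAN4 (0.289), ITGA5 (0.369) and GOLIM4 (0.392). Nearest to RBFOX2 were ADSS (0.138), SNRPF (0.192) and RIPK2 (0.195). A distance over 2 libraries mostly reflects the 2 mean levels.

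ZEB1, a repressor that is known to act on ESRP1, was at 12.9 ± 0.97 FPKM in shGRHL2 and 0.495 ± 0.20 FPKM in shLuc. Its part in the lower ESRP1 level was not tested.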

How the data were processed

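RNA of OVCA429 cells with shGRHL2 or shLuc was sequenced from stranded total RNA libraries. The authors demultiplexed, per the labels and their methods, with bcl2fastq 2.17.1.14, aligned to hg19 with STAR 2.4.2a and quantified with RSEM 1.2.25 on Gencode v19. The deposited values are FPKM per gene, with length and effective length columns of no named sample. RSEM divides fragments among transcripts that share sequence, so paralogs and genes with many transcripts are less certain. Their own differential calls used EBSeq, a count method that was not applied to these FPKM.

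Genes with a mean of 1 FPKM or more in at least 1 group were kept. Differences are of mean log2(FPKM + 1), computed with pandas 2.3.3 and checked on simulated data, and the pseudocount of 1 understates changes of low genes. Folds are ratios of mean FPKM. The 4 samples of a group met a limit of 3% on the median CV and were counted as 1 library, so no p-values are given. In genes with 1 transcript and at least 100 fragments per run, chi-square per degree of freedom between runs was 1.78 in shGRHL2 and 1.53 in shLuc, and in genes with several it was 3.77 and 3.70, where counting alone gives 1. Depth came from single-transcript genes whose low FPKM, times effective length, fell on whole fragments (88.7% to 91.0% of low values within 0.1 fragment), and is approximate. Errors from it cover counting only. Coordinates are from Gencode v44 lifted to GRCh37, the assembly of hg19. Promoter windows are from RefSeq on GRCh38.p14, without those of chromosome 8, on which ESRP1 lies.

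The genes named were the 10 regulators, GRHL2 and overlapping genes that passed the filter. In each of 11 lists those past the limit (at most 4) or else the highest and lowest were named. So were the nearest 3 genes of 4 regulators. Names outside these rules are paralogs, pseudogene copies and an antisense RNA of the regulators, list members at 0, MT-RNR2, SNAP25 and those stated in the text. Members and lists were chosen with earlier results of these data known. Of the listed symbols 1 was matched by gene identifier and 2 had several rows, of which the higher was used. The value of 1 leukocyte marker is not reported here.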

Additional observations from a re-analysis of the deposited data

Results flagged for a closer look

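In 22 sets of 4 runs, those of the 10 regulators and GRHL2 in each library, 1 run stood far from the other 3. GRHL2 was at 1.17 FPKM in run 3 of shGRHL2, against 0.10 to 0.15 FPKM in the other 3 shGRHL2 runs. The SD of GRHL2 between the shGRHL2 runs was 3.74 times that expected from counting, on about 30.8 fragments in the whole library. The reason was not tested. Chance alone flags about 1 in 20 such sets.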

How the results depend on the processing

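ESRP1, ESRP2 and RBM47 were called lower, with 0 of the 10 regulators higher, also with a pseudocount of 0.1, under 3 other scalings and without each run in turn. These calls were the same without a filter and with a filter at 5 FPKM, which MBNL3 did not pass. A filter does not enter the difference of a gene, so these filter settings could only change which genes were tested. The count of all tested genes was 746 higher and 1087 lower. It was 1324 and 1663 with a pseudocount of 0.1, and 464 higher with a filter at 5 FPKM, which tests fewer genes. Leaving out 1 run gave 757 to 787 higher and 1100 to 1132 lower. The share of called genes that were higher was 40.7%, and 34.1% with TPM, 49.4% with equal medians and 51.4% without mitochondrial ribosomal RNAs. The list of other splicing factors had 2 higher genes with a pseudocount of 0.1 and 0 with a filter at 5 FPKM. The log2 ratio of the summed MBNL level was −0.27, and −0.37 with TPM. That of the summed ESRP level was −3.71, and −3.82 with TPM. TPM divides each run by its FPKM total, which was larger in shGRHL2, so it lowers all such ratios. No paired analysis was possible because the values come from no test and the runs are of 1 library per group. Every value here lacks a check between separate cultures, and depth limits ESRP1 in shGRHL2 to a counting error of 11.6%.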
